A study of Mus musculus with 6 samples.

Results

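Tetraspanins are small membrane proteins that cross the membrane in several passes and gather other membrane proteins into shared clusters. The members were the probe sets of the deposited value table whose only platform gene symbol was Tspan followed by a number, or Cd9, Cd37, Cd53, Cd63, Cd81, Cd82 or Cd151. This gave 56 of 44991 probe sets, which stood for 25 of the 18186 genes with a probe set of their own. Each gene was taken from its probe set with the highest mean. Cd63 and Tspan7, the other genes of the rule in the RefSeq gene table, were not analysed here. The arrays held RNA of haematopoietic stem cells (HSC) sorted by flow cytometry from mouse bone marrow. The wildtype group (labelled WT HSC) and the PU.1 knockdown group (labelled PU.1 KD HSC) had 3 arrays each, and every array held a pool of 3 animals. No source used here gives the method of the knockdown, the strain and age of the animals or the surface markers of the sort.

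PU.1, the product of Spi1, belongs to the ETS transcription factors, binds DNA at GGAA-centred sites and is required to form myeloid cells and B cells. Tetraspanins work by association: Cd151 binds laminin-binding integrins, and the TspanC8 subgroup escorts the protease Adam10 to the cell surface. Cd37, Cd53 and Tspan32 are largely restricted to blood cells, while Cd9 is abundant on platelets and megakaryocytes and is also found on mouse HSC.

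Because PU.1 is a DNA-binding factor, the start-site windows of Cd53 and Cd37, leukocyte tetraspanins with unlike values below, and of Tspan2 are shown. Each window holds 250 bases before and 50 bases after a RefSeq transcript start in build GRCm38.p6, read 5′ to 3′ on the gene's strand. Capitals mark the letters GAGGAA on either strand, a PU.1-type ETS core.
Cd53, chr3:106790100-106790399, minus strand: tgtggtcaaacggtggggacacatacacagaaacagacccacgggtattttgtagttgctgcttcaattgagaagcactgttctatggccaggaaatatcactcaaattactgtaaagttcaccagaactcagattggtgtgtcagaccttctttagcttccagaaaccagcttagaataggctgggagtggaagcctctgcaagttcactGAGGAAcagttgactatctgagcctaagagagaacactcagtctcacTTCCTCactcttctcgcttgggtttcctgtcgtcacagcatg
Cd37, chr7:45238790-45239089, minus strand: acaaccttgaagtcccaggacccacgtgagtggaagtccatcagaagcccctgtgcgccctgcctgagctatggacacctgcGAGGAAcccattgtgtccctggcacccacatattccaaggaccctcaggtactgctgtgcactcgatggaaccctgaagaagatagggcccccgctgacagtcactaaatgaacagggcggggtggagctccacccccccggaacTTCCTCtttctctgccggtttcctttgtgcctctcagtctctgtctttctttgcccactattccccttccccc
Tspan2, chr3:102734520-102734819, plus strand: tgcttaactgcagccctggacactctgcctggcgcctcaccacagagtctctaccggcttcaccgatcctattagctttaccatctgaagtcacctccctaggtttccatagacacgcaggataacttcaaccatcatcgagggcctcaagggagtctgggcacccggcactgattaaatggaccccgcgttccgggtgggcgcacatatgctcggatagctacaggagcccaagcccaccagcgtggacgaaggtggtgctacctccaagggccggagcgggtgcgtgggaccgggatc
In the Cd53 window the matches began 39 bases before the start site and, on the other strand, at base 9 of the transcript. In the Cd37 window they began 168 and 23 bases before the start. Neither this Tspan2 window nor that of its other listed start held the letters. Of 24 members with a window in the table, 8 had a match in at least 1 of their windows: Cd37, Cd53, Cd82, Tspan6, Tspan9, Tspan14, Tspan31 and Tspan32. By window this was 9 of 34, or 26.5%, beside 28.3% of all 32851 windows of this length. The AP-1 letters TGANTCA, searched on both strands and without overlap with the ETS letters, were in 2 of the 34 windows, or 5.88%, beside 7.81% of all windows. A match describes letters and not binding.

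Values are the authors' deposited intensities on a linear scale, and differences are knockdown minus wildtype on a log2(intensity + 16) scale after quantile normalisation, each followed by its standard error (SE) from limma. Median intensities of the arrays were 81.4 to 91.5. Arrays correlated with each other at a Pearson r of 0.955 to 0.979 over the probe sets. In what follows, values on arrays are listed in the order of pools 1, 2 and 3 of a group. Spi1 had intensities of 1120, 718 and 1053 in the wildtype group and of 362, 360.4 and 119 in the knockdown group. It was thus lower in every knockdown pool and lowest in knockdown pool 3 (difference -1.76, SE 0.43; limma adjusted p = 0.503). HSC and progenitor genes such as Kit, Cd34, Flt3, Hlf and Procr were measured on every array, and all 12 matched genes of the stem cell list had means above the median of all probe sets. Genes of mature or committed cells were present as well. Summed intensities of 10 neutrophil genes ran from 23680 to 60974 in wildtype and from 47292 to 61455 in knockdown pools. The ranges were 703 to 3002 and 2245 to 4703 for 9 mast cell and basophil genes, with 8 of 9 higher in the knockdown mean. They were 2093 to 12918 and 249 to 1231 for 7 eosinophil genes, with 6 of 7 lower and 2 at the floor on at least 1 array. For 8 T and NK genes they were 1482 to 4210 and 2726 to 4330, and for 10 stromal and endothelial genes 1263 to 5605 and 1526 to 4174. The wildtype minimum of each of these sums of mature or committed cells came from wildtype pool 2. Means below the median of all probe sets were found for 0 of the 10 neutrophil and 3 of the 9 mast cell and basophil genes. The same was true of 4 of the 7 eosinophil, 4 of the 8 T and NK and 4 of the 10 stromal and endothelial genes. Nkg7 alone made up most of the T and NK sum on every array.

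Over the 25 tetraspanin genes the differences were small for most and pronounced for a few. The median difference was -0.03, beside 0.02 over all genes, and the quartiles of -0.13 and 0.18 lay near those of all genes, -0.13 and 0.16. Of the 25 genes, 15 had a lower and 10 a higher knockdown mean, so 60% were lower, beside 46.6% of all genes. With values as deposited, without quantile normalisation, these shares were 68% and 58.1%, and with median centring 56% and 44.2%. Adjusted by Benjamini-Hochberg across the whole table, 0 of the 25 passed the limma test at 0.05, where 0% of all probe sets did, and the smallest such p of a member was 0.526. Unadjusted, Cd53 and Tspan2 had a limma p under 0.05, which is 2 of 25 or 8%, beside 7.63% of all genes. Both were lower, and over all genes 3.52% were lower and 4.1% higher at that p. A difference of at least 0.5 in size was found for 4 members (16%), namely Cd53, Tspan8, Tspan2 and Tspan6, beside 7.52% of all genes. The groups did not overlap for 3 members (12%), all of them lower in the knockdown pools, namely Cd53, Tspan2 and Cd81. Over all genes the groups did not overlap for 13.8%, made up of 5.39% lower and 8.42% higher. The shares by p and by separate groups thus lay near the background. Over the 56 probe sets, 5 (8.93%) had an unadjusted p under 0.05, beside 7.11% of all probe sets, and 6 (10.7%) had groups that did not overlap, beside 12.9%.

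**Figure D1:**
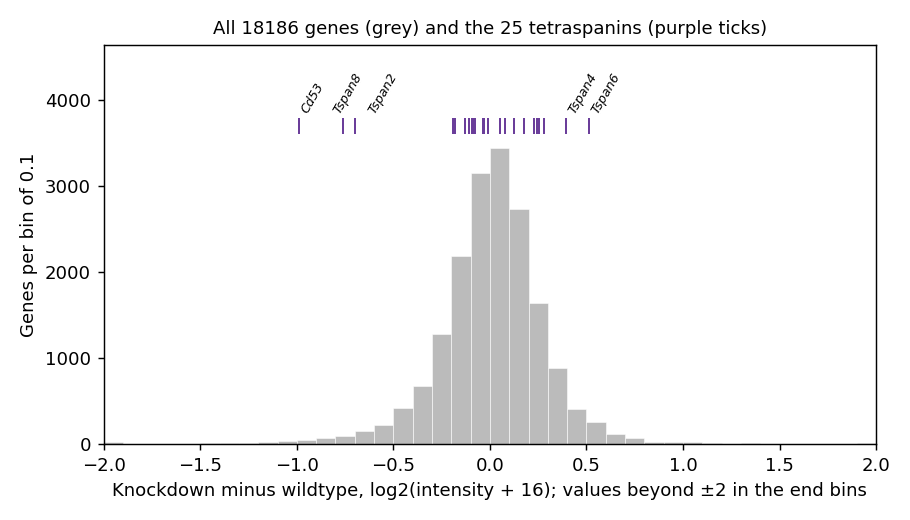
Number of genes (vertical axis) by knockdown minus wildtype difference on the log2(intensity + 16) scale (horizontal axis, bins of 0.1), with a purple tick for each of the 25 tetraspanin genes. Most ticks lie within 0.25 of 0 (18 of 25), and Cd53, Tspan8 and Tspan2 stand apart on the lower side at -0.99, -0.76 and -0.70.

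Among the leukocyte tetraspanins, Cd53 had the largest difference of all members. Cd53 organises adhesion molecules and receptors on white blood cells. Its intensities on probe set 1448617_at were 1508.5, 1609 and 1545 in the wildtype group and 932, 1092 and 403 in the knockdown group. The wildtype pools lay close together, and each knockdown pool lay below all of them, with knockdown pool 3 the lowest. The log2 means were 10.6 ± 0.05 and 9.61 ± 0.81 (SD, n = 3 pools each), a difference of -0.99 (SE 0.36, 95% interval -1.82 to -0.17), or 0.503 of the wildtype level. An exact two-sided permutation test gave p = 0.1, which is the floor for 3 pools against 3, and the limma adjusted p was 0.655. Without knockdown pool 3 the difference was -0.53 (limma adjusted p = 0.77), and without wildtype pool 2 or 3 the unadjusted p was no longer under 0.05. The other Cd53 probe set 1459744_at gave 60.2, 70.9 and 63.2 in wildtype and 49.7, 60.4 and 20.1 in knockdown pools, again lowest in knockdown pool 3 (difference -0.45, SE 0.28).

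Knockdown pool 3 also had the lowest sums of the macrophage and monocyte, the B lymphoid and the eosinophil lists, though not of every myeloid list. Summed intensities of the 10 macrophage and monocyte genes were 9173, 6304 and 7147 in the wildtype group and 6744, 6382 and 3835 in the knockdown group, with 10 of 10 genes lower in the knockdown mean, or 8 of 10 with median centring. Those of 9 matched B lymphoid genes were 2524, 1977 and 2071 beside 1993, 1677 and 929, with 6 of 9 lower. Knockdown pool 3 was lowest for 5 of the 10 macrophage genes and 6 of the 9 B lymphoid genes, and no gene of either list was at the floor. Eosinophil sums over 7 genes were 12918, 2093 and 6689 in wildtype and 1231, 599 and 249 in knockdown pools. Each knockdown pool thus lay below all wildtype pools, as for Cd53, and knockdown pool 3 was lowest for 4 of the 7 genes. Its neutrophil sum of 58254 lay inside the wildtype range, and its mast cell and basophil sum of 4703 was the highest of all arrays. In knockdown pools 1 and 2 the macrophage sums lay inside the wildtype range while Cd53 lay below its own. The B lymphoid sum lay inside that range in knockdown pool 1 and below it in knockdown pool 2. The part of these cells in the Cd53 difference was not tested, and in bulk RNA fewer cells of a type and less RNA per cell cannot be told apart.

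The other leukocyte tetraspanins did not share the Cd53 pattern. Cd37, which restrains B cell and myeloid signalling, had intensities of 1148, 960 and 1206 in wildtype and 1414, 956 and 1152 in knockdown pools on 1419206_at. These groups overlapped, with a difference of 0.13 (SE 0.22, 95% interval -0.37 to 0.63; limma adjusted p = 0.93). The other Cd37 probe set, 1425736_at, had its highest values in wildtype pool 2 (409) and knockdown pool 3 (371), arrays that were not highest on 1419206_at. Tspan32, a regulator of T cell and platelet responses, had intensities of 1086, 1087 and 1148 in wildtype and 779, 945 and 1488 in knockdown pools. Here knockdown pool 3 was the highest array, opposite to Cd53, and the other knockdown pools lay below all wildtype pools. The Tspan32 difference was -0.03 (SE 0.21), and it was 0.27 (SE 0.23) on its other probe set, which was also highest in knockdown pool 3 (1175).

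**Figure D2:**
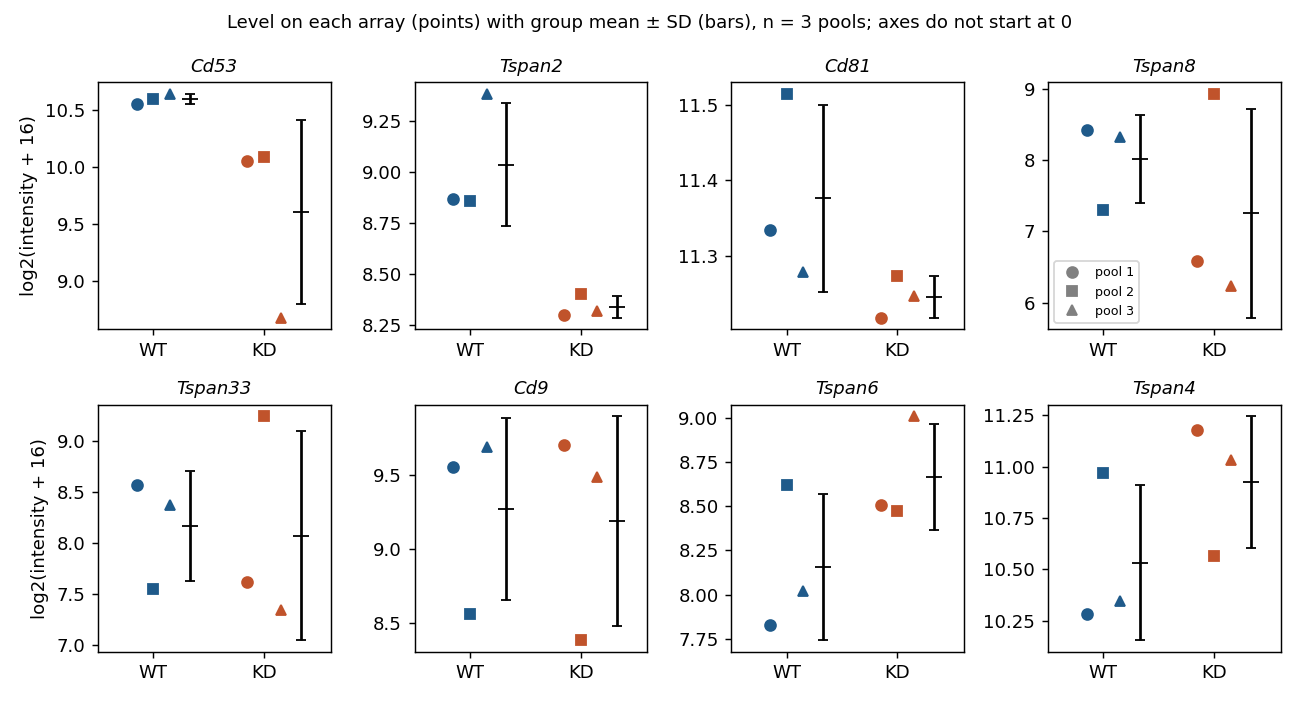
Log2(intensity + 16) of 8 tetraspanin genes on each array after quantile normalisation (vertical axes, which do not start at 0), with wildtype pools in blue and knockdown pools in orange, pool numbers as symbols, and group means ± SD as black bars. Cd53, Tspan2 and Cd81 have separate groups, while Tspan8 and Tspan33 are highest in knockdown pool 2 and Cd9 is lowest in pool 2 of each group.

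The broadly expressed members Cd81, Cd82, Cd151 and Cd9 had gene-level differences between -0.13 and 0.05. Cd81, a partner of integrins, had intensities of 2676, 2879 and 2393 in wildtype and 2272, 2492 and 2426 in knockdown pools. The deposited intensities of the groups overlapped, and the normalised values did not, by a narrow margin (difference -0.13, SE 0.14; limma adjusted p = 0.872). Cd82, known as a suppressor of metastasis and for a role in HSC quiescence, had intensities from 1080 to 1158 in wildtype and from 967 to 1290 in knockdown pools (difference 0.05, SE 0.14, and below 0 with values as deposited). On the second Cd82 probe set, 1449611_at, the groups did not overlap in the upward direction, at 340 to 364 beside 371 to 399.95 (difference 0.18, SE 0.14; limma adjusted p = 0.826). Cd151 had 6 probe sets, with differences from -0.08 to 0.40, 2 of them lower. The largest of these came from the dim probe set 1420921_at (23.3 to 33.3 beside 30.8 to 49.5; limma adjusted p = 0.695), and the brightest gave -0.03 (SE 0.18).

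Cd9 varied more between pools than between the groups. Its intensities were 748, 387 and 802 in the wildtype group and 718, 317 and 721 in the knockdown group. Pool 2 of either group stood low and the other 4 arrays lay together. The difference was -0.08 (SE 0.41, 95% interval -1.02 to 0.86; limma adjusted p = 0.98), an interval wide enough to hold the Cd53 difference. Summed intensities of 14 matched megakaryocyte and platelet genes were 19996, 9523 and 19055 in wildtype and 10045, 3757 and 10175 in knockdown pools, lowest in pool 2 of each group as for Cd9. In that list 12 of 14 genes were lower in the knockdown mean and none was at the floor. Pool 2 of each group was also lowest for the neutrophil, the T and NK, and the stromal and endothelial sums. Neutrophil sums, for example, were 60974, 23680 and 49016 in wildtype and 61455, 47292 and 58254 in knockdown pools. The T and NK sums were made up mostly of Nkg7, at 3785, 982 and 3507 in wildtype and 3718, 2193 and 3653 in knockdown pools. Among the 8 T and NK genes, wildtype pool 2 was the lowest of all arrays for 2 and knockdown pool 2 for 2. The mast cell and basophil sums were also lowest in pool 2 of each group, by a narrow margin in knockdown pools (2342, 2245 and 4703). By gene, wildtype pool 2 was the lowest of all arrays for 4 of these 9 genes and knockdown pool 2 for 0. Knockdown pools 1 and 3, with platelet sums near that of wildtype pool 2, had Cd9 values near those of wildtype pools 1 and 3. The part of platelet-lineage RNA, or of RNA of the other cell types, in the Cd9 values was not tested.

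The TspanC8 members, which pair with Adam10, had gene-level differences from -0.19 to 0.26, with 4 of 6 lower. Tspan5 had intensities of 665, 587 and 645 in wildtype and 554, 551 and 464 in knockdown pools on 1417179_at, groups that were separate as deposited and overlapped once normalised (difference -0.19, SE 0.17; limma adjusted p = 0.846). Its other probe set gave -0.18 (SE 0.20). Tspan14 had intensities of 1760, 2191 and 1508 beside 1614, 1455 and 1865 and a difference of -0.11 (SE 0.18). Tspan10, Tspan15 and Tspan17 had 17.5 to 141 intensity units over all arrays and differences of 0.26 (SE 0.18), -0.09 (SE 0.20) and 0.23 (SE 0.22). The other Tspan17 probe set, 1455642_a_at, gave 0.54 (SE 0.31). Adam10 itself had intensities of 1224, 1445 and 1430 in wildtype and 617, 1094 and 1235 in knockdown pools, with separate groups after normalisation and knockdown pool 1 lowest (difference -0.47, SE 0.22; limma adjusted p = 0.717).

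Tspan33, a TspanC8 member known from erythroid precursors and activated B cells, had intensities of 371, 184 and 316 in the wildtype group and 164, 601 and 149 in the knockdown group on 1455618_x_at. Knockdown pool 2 was the highest of all arrays and, as deposited, knockdown pools 1 and 3 were the lowest. The difference of -0.09 (SE 0.50) was small beside the knockdown SD of 1.03. All 4 Tspan33 probe sets were highest in knockdown pool 2, and their differences ran from -0.09 to 0.23. Tspan8, which is best known from epithelial cells and their exosomes, followed a like order on 1424649_a_at, with 333, 150 and 304 in wildtype and 74.5, 483 and 59.98 in knockdown pools. Its difference was -0.76 (SE 0.67; limma adjusted p = 0.848). It was -1.60 without knockdown pool 2 (limma adjusted p = 0.484), -0.43 without knockdown pool 1 and -0.25 without knockdown pool 3. Of the other 4 Tspan8 probe sets, 1455709_at had separate groups, at 37.8 to 48.7 beside 14.0 to 32.8 (difference -0.50, SE 0.20; limma adjusted p = 0.684). There knockdown pool 2 lay below all wildtype pools. The remaining probe sets 1420017_at, 1420018_s_at and 1420019_at gave 0.04 (SE 0.17), -0.30 (SE 0.22) and -0.18 (SE 0.15). After normalisation knockdown pool 2 was highest on 1420017_at and 1420018_s_at, but not on 1420019_at.

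The summed erythroid markers were likewise highest in knockdown pool 2, where 4 of the 8 matched genes (Car1, Ermap, Klf1 and Epor) had their highest value. Summed intensities of its 8 matched genes were 8198, 3678 and 7293 in wildtype and 4287, 12028 and 4763 in knockdown pools, with 4 of 8 genes lower in the knockdown mean and none at the floor. The erythroid transcription factor gene Klf1 had 883, 159 and 521 beside 411, 1920 and 339. Alas2, Slc4a1 and Tfrc were highest in wildtype pool 1 and Hba-a1 in wildtype pool 3, so these 4 did not share the order of Tspan33 and Tspan8. The leading 3 arrays, knockdown pool 2, wildtype pool 1 and wildtype pool 3, stood in the same order for the erythroid sum and for the highest-mean probe sets of Tspan33 and Tspan8. The part of erythroid precursors in these values was not tested.

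**Figure D3:**
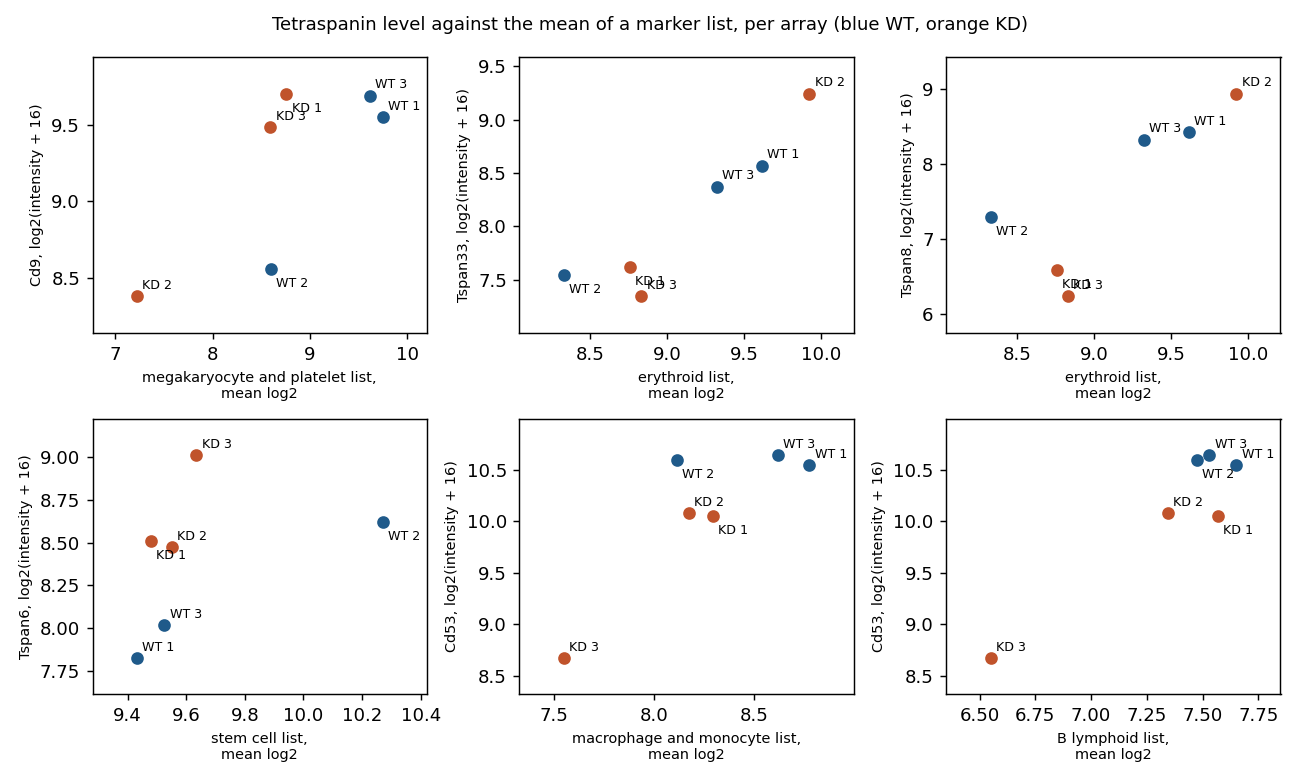
Normalised log2(intensity + 16) of a tetraspanin gene (vertical axes) against the mean log2 value of a marker list (horizontal axes) on each of the 6 arrays, wildtype in blue and knockdown in orange. Tspan33 and Tspan8 are highest on the array with the highest erythroid mean (knockdown pool 2), Cd9 is lowest on that with the lowest megakaryocyte and platelet mean (knockdown pool 2), and Cd53 is lowest on that with the lowest macrophage and B lymphoid means (knockdown pool 3).

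Tspan2, known from oligodendrocytes, had the smallest p at the gene level, on the highest-mean probe sets. A weak probe set of Tspan18, given with that gene, had a smaller one. The Tspan2 intensities on 1424568_at were 461, 479.9 and 648 in the wildtype group and 269, 322 and 309.8 in the knockdown group. The groups were separate, with wildtype pool 3 the highest array. The log2 means were 9.04 ± 0.30 and 8.34 ± 0.06 (SD, n = 3 pools each), a difference of -0.70 (SE 0.18, 95% interval -1.11 to -0.29), or 0.616 of the wildtype level. The exact permutation test again gave its floor of 0.1, and the limma adjusted p was 0.526. With any single array left out the difference stayed between -0.79 and -0.53. The other Tspan2 probe sets had smaller differences of the same sign, -0.24 (SE 0.17) on 1432417_a_at and -0.14 (SE 0.32) on 1424567_at, with overlapping groups.

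Tspan6 and Tspan4 had the largest differences in the upward direction. Tspan6, an inhibitor of antiviral signalling, had intensities of 215, 403 and 244 in wildtype and 312, 341 and 515 in knockdown pools on 1416872_at. Wildtype pool 2 lay among the knockdown pools, and wildtype pools 1 and 3 lay below them. The difference was 0.51 (SE 0.25, 95% interval -0.06 to 1.08; limma adjusted p = 0.73), and the second probe set gave 0.63 (SE 0.30). Tspan4, which builds the migration organelles called migrasomes, had intensities of 1249, 2062 and 1264 in wildtype and 2211, 1530 and 2106 in knockdown pools. Wildtype pool 2 again stood apart from the other wildtype pools, and the groups overlapped (difference 0.39, SE 0.24; limma adjusted p = 0.784). Without wildtype pool 2 the differences were 0.75 for Tspan6 (limma adjusted p = 0.406) and 0.62 for Tspan4 (limma adjusted p = 0.506), both at an unadjusted p under 0.05. Wildtype pool 2 had the highest summed intensity of the 12 stem cell genes, 21852 beside 10909 and 11569 in the other wildtype pools and 11525 to 14436 in the knockdown pools. This pool had the lowest neutrophil, mast cell and basophil, and T and NK sums of all arrays (23680, 703 and 1482). The same held for its erythroid sum (3678) and its stromal and endothelial sum (1263). Its T and NK sum was mostly Nkg7 (982), and wildtype pool 2 was the lowest array for only 2 of the 8 T and NK genes. The part of the stem cell share, or of the other cell types, in the Tspan6 and Tspan4 values was not tested.

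The remaining members differed little between the groups on their highest-mean probe sets. Tspan13 had intensities of 2884, 3559 and 2133 in wildtype and 1760, 3259 and 3592 in knockdown pools on 1418643_at, a wide spread in both groups (difference -0.01, SE 0.28, and above 0 with median centring). On its second probe set, 1460239_at, the knockdown pools lay together at 1768 to 1788 and the wildtype pools ran from 1097 to 1878, so knockdown pool 1 was lowest on one probe set and not on the other (difference 0.28, SE 0.20). Tspan3, a gene linked to leukaemia stem cells, had intensities of 1230, 1786 and 1304 beside 1006, 1329 and 1485 (difference -0.13, SE 0.18). Tspan31, which lies in a region amplified in sarcomas, had 3 probe sets with differences of 0.17 to 0.25, and Tspan1 had 2, with 0.28 and 0.31. The Norrin receptor component Tspan12, measured at 12.2 to 22.2 intensity units, differed by 0.18 (SE 0.16), and Tspan11 by 0.08 (SE 0.20), which was below 0 with values as deposited. Of the 4 Tspan11 probe sets, 3 were lower, down to -0.39 (SE 0.28) on 1445860_at. Platelet Tspan9 differed by -0.03 (SE 0.14), with 209 to 241 beside 189.9 to 229, and by 0.20 (SE 0.18) on its other probe set. Tspan18, known from endothelium as a partner of the calcium channel Orai1, differed by -0.18 (SE 0.21) on its brightest probe set. Its dimmest, 1437095_at, had separate groups the other way, at 5.57 to 16.99 beside 31.3 to 40.6 (difference 0.94, SE 0.20; limma adjusted p = 0.456), near the low end of the array's signal.

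**Figure D4:**
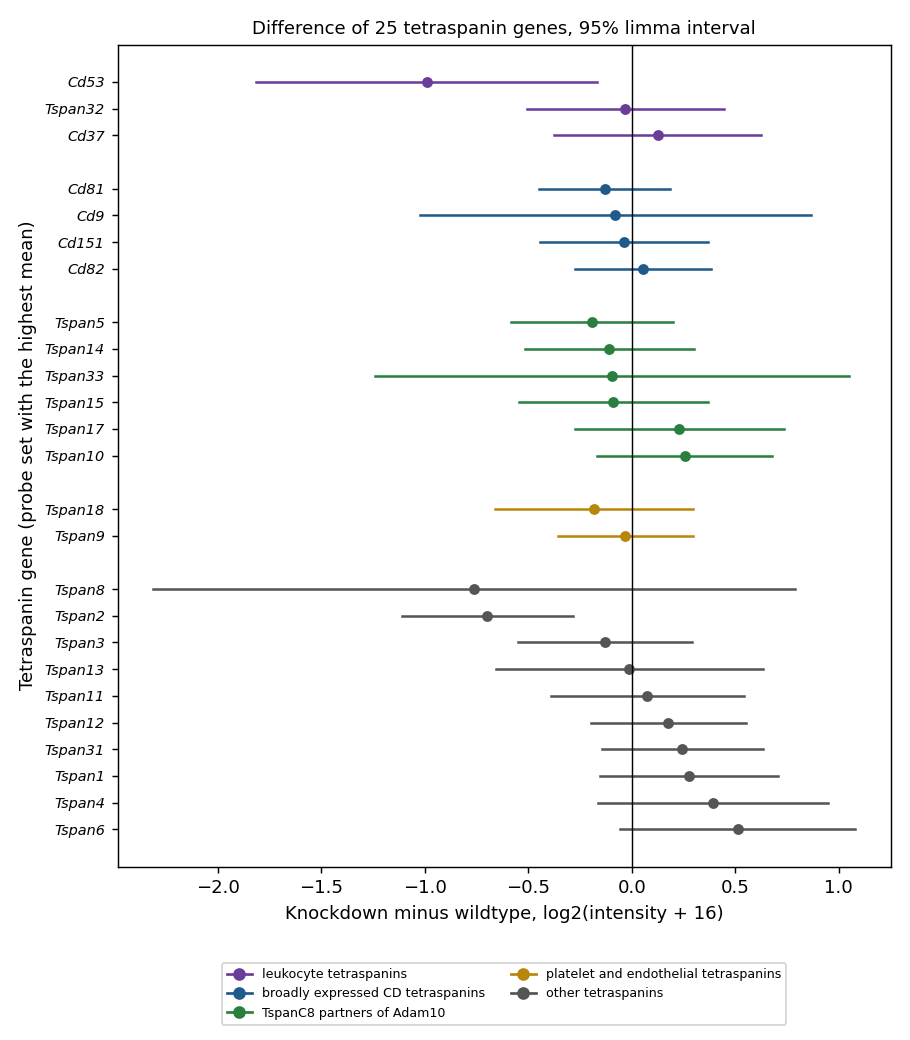
Knockdown minus wildtype difference on the log2(intensity + 16) scale (horizontal axis) with its 95% interval from limma for each of the 25 tetraspanin genes (vertical axis), coloured by role. The intervals of Cd53 (-1.82 to -0.17) and Tspan2 (-1.11 to -0.29) lie wholly below 0, before any adjustment for the number of probe sets, and those of the other 23 genes include 0.

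For 19 of the 25 genes the difference between the groups was smaller than the larger of the within-group SDs. In no array did the members move as a block: wildtype pools 1, 2 and 3 held the highest value of 3, 5 and 3 members and the lowest of 2, 5 and 5. Knockdown pools 1, 2 and 3 held the highest value of 6, 4 and 4 and the lowest of 5, 3 and 5. Of the 17 genes with several probe sets, 8 had differences of both signs among them. Shares over all genes were not computed for the 19 of 25 or for the 8 of 17, so neither count sets the members apart. Next to each other among the protein-coding genes of the RefSeq table lie Tspan32 and Cd81 on chromosome 7, Tspan11 and Tspan9 on chromosome 6, and Tspan18 and Cd82 on chromosome 2, and all of these had gene-level differences between -0.18 and 0.08.

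**Figure D5:**
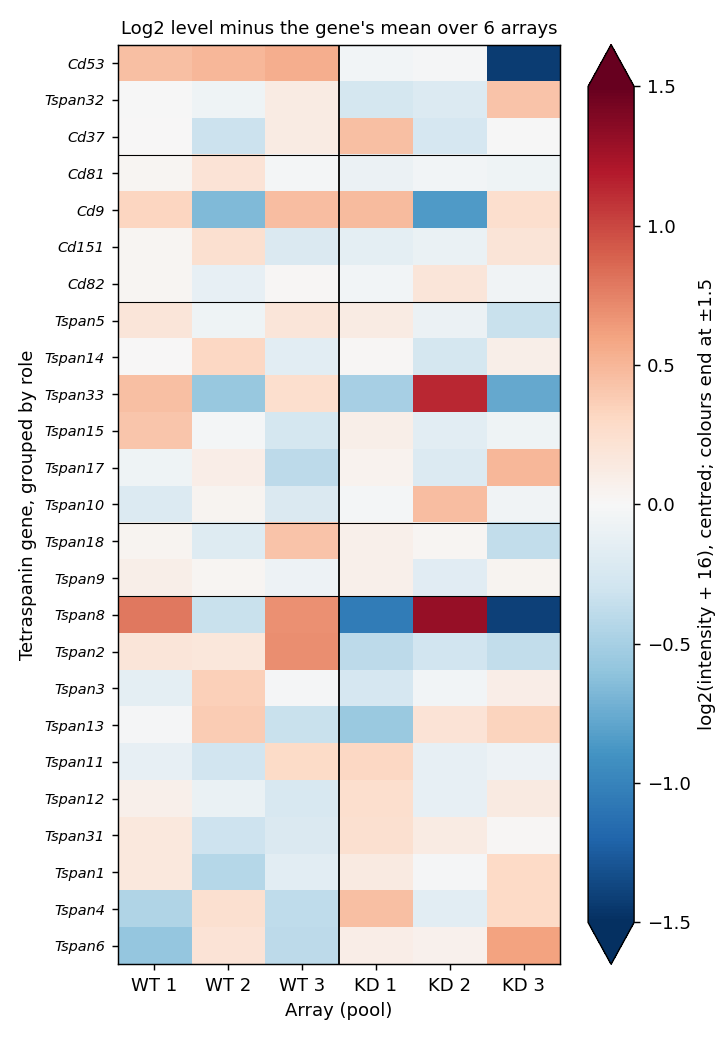
Normalised log2 level of each tetraspanin gene minus its mean over the 6 arrays, with arrays as columns (wildtype left, knockdown right of the line) and genes as rows grouped by role; red is higher and blue lower, and the colours end at 1.5 in either direction. Tspan8 and Tspan33 are reddest in knockdown pool 2, Cd53 is bluest in knockdown pool 3, and most other rows are pale.

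Known partners of tetraspanins were examined by list, and 0 of the genes in any list passed the limma test over all probe sets. Of 11 integrin genes, 8 were lower, 2 of them at an unadjusted p under 0.05, with a median difference of -0.20. Over all genes 46.6% were lower and 3.52% were lower at that p. The laminin receptor subunit Itga6, a partner of Cd151, had intensities of 892, 1142 and 945 in wildtype and 428, 578 and 725 in knockdown pools, groups that did not overlap (difference -0.72, SE 0.18; limma adjusted p = 0.507). Its partner subunit Itgb4 differed by -1.82 (SE 0.76), with knockdown pool 1 below 0 as deposited. The upward integrin genes with the smallest p were Itga2 (0.12, SE 0.16) and Itgb2 (0.20, SE 0.28). Of 11 immunoglobulin-type and other surface partners, 9 were higher, or 8 with values as deposited (median 0.12), with Igsf8, which binds Cd9 and Cd81, at 0.45 (SE 0.16; limma adjusted p = 0.656) and Cd47 at 0.17 (SE 0.13). Icam1 (-0.32, SE 0.21) and Hbegf (-0.08, SE 0.15) were the lower ones.

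The remaining partner lists had medians near 0. Of 6 genes around Adam10, 2 were lower and 4 higher, turning to 4 lower with values as deposited (median 0.02), with Notch2 at 0.28 (SE 0.16), Notch1 at 0.13 (SE 0.27) and Cdh5 at -0.22 (SE 0.20) beside Adam10. Of 10 matched B and T cell receptor partners, 4 were lower and 6 higher (median 0.08). The class II genes H2-Aa and H2-Ab1 differed by -0.67 (SE 0.45) and -0.43 (SE 0.35), lowest in knockdown pool 3 as Cd53 was, and Ifitm2 and Ifitm3 by 0.20 (SE 0.14) and 0.31 (SE 0.19). Of 12 endosome and exosome genes, 7 were lower (median -0.10), with Lamp1 at -0.25 (SE 0.14) and Lamp2 at -0.36 (SE 0.18), and with Tsg101 at 0.27 (SE 0.15) and Ap3b1 at 0.18 (SE 0.14). Of 12 signalling partners, 7 were lower (median -0.07), with Met at -0.55 (SE 0.30) and Kit at -0.39 (SE 0.23), and with Pi4k2a at 0.24 (SE 0.14) and Stim1 at 0.21 (SE 0.18). The tetraspanins with other names, Upk1a, Upk1b, Rom1 and Prph2, were outside the rule; 2 were lower and 2 higher (median -0.02), the uroplakin genes Upk1a and Upk1b at 1.34 (SE 0.93) and -0.25 (SE 0.16), with Upk1a below 0 as deposited in wildtype pool 1, and the photoreceptor genes Prph2 and Rom1 at 0.01 (SE 0.17) and -0.05 (SE 0.18).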

How the data were processed

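Values are the intensities deposited by the authors, processed per probe set and linear. Which software, background correction and scaling produced them is not given in the sources used here. Per the labels' protocols, RNA was amplified in several rounds of reverse transcription and in-vitro transcription, which favours 3' ends and adds noise to weak signals. Values under 1 were set to 1, log2(value + 16) was taken and arrays were quantile normalised. Folds of dim probe sets are therefore understated. All 44991 probe sets entered a limma fit (version 3.58.1, R 4.3.3; lmFit, then eBayes). P-values are two-sided and were adjusted by Benjamini-Hochberg over all of them, with a threshold of 0.05. No filter on low values was applied, and 22 of the 25 members had means above the 40th and 19 above the 60th percentile. Exact permutation tests were two-sided over the 6 arrays. The replicate was the pool, and 3 per group limit the precision. The fit was tested on simulated data. Gene names came from the platform annotation (34921 with 1 symbol, 930 with several and 9140 with none). All 25 members were found by gene ID in the RefSeq table, and 24 had a start-site window.

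Values on every array are given for members whose groups did not overlap, with an unadjusted p under 0.05, with a difference of at least 0.5 in size or among the 5 of highest mean; those of Cd9, Cd37, Tspan5, Tspan32 and Tspan33, and single probe sets beside the brightest, were added after their values were seen. Of each partner list up to 2 genes per direction with the smallest p are named; in the Adam10 list this gives Adam10, Cdh5, Notch2 and Notch1. Members and lists were chosen with earlier results of these data known. Same-numbered pools had correlations of their deviations of 0.178, 0.061 and -0.0392 across probe sets for pools 1, 2 and 3. Those of the same wildtype pools with knockdown pools of other numbers were -0.146 to -0.047, -0.198 to 0.154 and -0.0272 to 0.0609. The same-numbered value lay above that range for pool 1 only, and the numbers were not taken to pair the samples. Python 3.11.15 with matplotlib 3.10.9 drew the figures.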

Additional observations from a re-analysis of the deposited data

How the results depend on the processing

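Of 16 alternatives (values as deposited, median centring, pseudocounts of 1 and 64, filters on dim probe sets at the 40th and 60th percentile, eBayes with trend and robust, array weights, the replicate block, each of 6 arrays left out, and the mean of all probe sets of a gene), none gave a tetraspanin gene past the threshold, with limma. Cd53 and Tspan2 kept their sign in all of them (-1.23 to -0.53 and -0.79 to -0.36), as did 10 further members wherever they were tested, and 13 turned at least once.

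The replicate block called 0 probe sets and 0 members, as without it, and left 2 members at an unadjusted p under 0.05. All probe sets past the threshold numbered 0 to 2 with 1 array left out. The count of members at an unadjusted p under 0.05, an alternative reading added after seeing the data, was 1 to 3 with 1 array left out and 1 (Tspan18) with the mean of all probe sets. It held Cd53 and Tspan2 under every other setting, but not Cd53 without wildtype pool 2 or 3. The median difference of the members was -0.10 with values as deposited, 0.093 with the mean of all probe sets and -0.058 to 0.036 with 1 array left out. The median over all probe sets was -0.048 as deposited and 0.0090 as reported.

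Reversed values, with the cause not tested, were as follows. With values as deposited, Cd82 was -0.0061 and Tspan11 -0.0082. With median centring, Tspan13 was 0.044. With array weights, Tspan13 was 0.18, Cd37 -0.0094, Tspan11 -0.039 and Cd151 0.041. With the mean of all probe sets, Tspan32 was 0.12, Tspan13 0.13, Tspan9 0.084, Tspan11 -0.099, Cd151 0.12, Tspan18 0.32 and Tspan33 0.040. With 1 array left out, Cd9 ran from -0.43 to 0.32, Tspan15 from -0.24 to 0.099, Tspan9 from -0.079 to 0.044, Tspan33 from -0.68 to 0.27, Tspan3 from -0.23 to 0.015, Tspan13 from -0.19 to 0.26, Cd37 from -0.068 to 0.29, Tspan14 from -0.21 to 0.020, Tspan11 from -0.060 to 0.24, Cd151 from -0.15 to 0.076, Tspan32 from -0.25 to 0.094 and Cd82 from -0.022 to 0.095.

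The median SE of a member was 0.20 on the log2 scale, from 3 arrays per group.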
